A study of Mus musculus with 4 samples.

Results

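The cells described here were neural progenitors of the mouse embryonic head at E10.5 (the embryonic day) that held RNA of both Foxa2 and Lmx1a. They were taken from droplet single-cell RNA-seq by a fixed gate. A cell entered when at least 500 genes were detected and under 10% of its UMIs (unique molecular identifiers, each counting 1 captured RNA molecule) were mitochondrial. It also needed at least 1 UMI of Foxa2, of Lmx1a and of Sox2, none of Epcam, and at most 2 of the 6 neuronal genes Tubb3, Stmn2, Dcx, Elavl3, Ina and Gap43. The gate left 150 of 24259 kept cells and is referred to as the floor plate cells below. The embryos carried 1 altered copy of Apcdd1 (Apcdd1+/-) or were wild type (WT), with 2 libraries per genotype. Apcdd1 encodes a glycoprotein of the cell membrane that inhibits Wnt signalling. The labels do not name which part of the gene was altered, so UMIs of Apcdd1 do not check the genotype. The labels also do not give the number of embryos behind a library, so p-values measure only the spread between these libraries, which may be technical.

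The floor plate is the strip of cells at the ventral midline of the neural tube, and it secretes Sonic hedgehog (Shh), which patterns the neighbouring ventral progenitors. Foxa2, a forkhead transcription factor, drives floor plate identity and Shh. In the midbrain the floor plate also expresses the LIM homeodomain factor Lmx1a and gives rise to dopamine neurons, whereas more dorsally Lmx1a marks the roof plate and the cortical hem. Lmx1a positive floor plate extends forward into the caudal diencephalon, where the subthalamic and mammillary regions form and where Barhl1 and Wnt8b are known to be expressed.

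In library order Apcdd1+/- replicate 1, Apcdd1+/- replicate 2, WT replicate 1 and WT replicate 2, there were 69, 20, 41 and 20 floor plate cells, and all lists of 4 values below keep that order. Their median depth was 8692, 12118.5, 11119 and 15966.5 UMIs per cell, and their summed depth was 688271, 249639, 503739 and 355334 UMIs. Whole libraries held 3122 to 9735 barcodes and 55393605 to 96822641 UMIs. Pairs of libraries shared between 6 and 25 bead barcodes among those the barcode files list, and the file of Apcdd1+/- replicate 1 listed 3994 of its 9735 cells. Y-linked genes summed to 106 CPM (a gene's UMIs over all UMIs of the summed cells, scaled to 1000000) in Apcdd1+/- replicate 2. They summed to 91.6 CPM in WT replicate 1, and to 3.91 and 3.16 CPM in the other libraries. Thus 1 library of each genotype held male cells, and a pool of both sexes cannot be told from a male one here. The sex of a library below means this reading of Y-linked genes.

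The genes of the gate are a description of how the cells were chosen. On mm10 with GENCODE vM21, Foxa2 lies at chr2:148042877-148046969 on the minus strand and Lmx1a at chr1:167689237-167848741 on the plus strand. Foxa2 had 1 UMI in 60 cells, 2 in 39 and 3 or more in 51. Lmx1a had 1 UMI in 29 cells, 2 in 34 and 3 or more in 87. Sox2, a factor of neural progenitors, had 1 UMI in 11 cells and 3 or more in 124. None of the 6 neuronal genes was detected in 80 members, 1 in 51 and 2 in 19, and just outside the gate lay 7 cells with 3 of them. Another 14 cells met all conditions but had no Sox2 UMI, and no cell was removed by Epcam. Neuronal transcripts in members were mostly Tubb3, at 43.6, 44.1, 65.5 and 50.7 CPM, with Gap43 at 30.5, 8.01, 11.9 and 28.1 CPM. Elavl3 stayed between 0 and 15.9 CPM, and Stmn2, Dcx and Ina reached at most 8.01 CPM in any library.

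Beside Foxa2 and Lmx1a, 3 genes were given with the cells as their markers, and since those were chosen on these data their levels are not independent support. Dkk2, a secreted modulator of Wnt signalling, had a UMI in 81.3% of floor plate cells, against 11.7% of Foxa2 positive, Lmx1a negative progenitors and 21.4% of Lmx1a positive, Foxa2 negative progenitors. With every cell thinned to 5000 UMIs, which kept 143, 544 and 398 cells of these sets, the Dkk2 shares were 67.1%, 8.82% and 14.1%. The unthinned median depths were 10847.5, 10187.5 and 11141.5 UMIs. Slit2, a midline repellent of axons, had a UMI in 85.3% of floor plate cells, against 42.9% of the Lmx1a negative and 55.5% of the Foxa2 negative progenitors. Spon1 (F-spondin), an extracellular matrix protein of the floor plate, had a UMI in 58.0% of floor plate cells, against 75.3% of the Lmx1a negative and 15.0% of the Foxa2 negative progenitors.

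The cells were labelled as midbrain floor plate, and the position genes went against the midbrain for many of them. En1 or En2, homeodomain factors of the midbrain and anterior hindbrain, had a UMI in 27.5% and 20.0% of floor plate cells of the Apcdd1+/- libraries and in 31.7% and 20.0% of those of the WT libraries. Barhl1 or Barhl2, homeodomain factors of the caudal diencephalic floor plate, had a UMI in 36.2% and 55.0% of the cells of the Apcdd1+/- libraries and in 48.8% and 75.0% of those of the WT libraries. Of the 150 cells, 38 held only the En pair, 69 only the Barhl pair, 2 both and 41 neither. The 150 cells are therefore called floor plate cells here, without a region. Median depth was 10847.5 UMIs in cells with only the En pair, 11802 with only the Barhl pair and 8325 with neither. The part of depth in these counts was not tested. Otx2, a factor of forebrain and midbrain, was at 490, 481, 510 and 568 CPM.

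Markers of other cell types were summed in the same way. Markers of neurons summed to 176 to 265 CPM in floor plate cells, against 242 to 341 CPM in Lmx1a negative and 182 to 210 CPM in Foxa2 negative progenitors. Markers of macrophages summed to 5.96 to 28.1 CPM over the 4 libraries, with 6 of 10 at 0 including Csf1r and Ptprc. Endothelial markers summed to 20.0 to 35.7 CPM, with 5 of 10 at 0 including Cdh5 and Cldn5. Erythroid markers summed to 35.7 to 84.4 CPM and mesenchymal markers to 23.8 to 131 CPM. Notochord markers summed to 107 to 148 CPM in floor plate cells, against 108 to 138 CPM in Lmx1a negative and 169 to 274 CPM in Foxa2 negative progenitors, and 3 of the 8 (T, Noto and Krt19) were at 0 in floor plate cells. Some transcripts were concentrated in single cells. In Apcdd1+/- replicate 1, which had the highest mesenchymal sum, 18 of 27 Col1a2 UMIs lay in 1 cell. The choroid plexus transcript Ttr was at 1743 CPM in Apcdd1+/- replicate 2 and 0 in the other libraries, and 434 of its 435 UMIs lay in 1 cell.

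To see what goes with Lmx1a among Foxa2 positive progenitors, UMIs were summed per library and the floor plate cells were compared with the 608 cells that passed the same gate with no Lmx1a UMI (Lmx1a negative cells). A 0 can be a missed molecule, and the set of 608 can thus hold cells that express Lmx1a. edgeR's quasi-likelihood test with the library as a block, at a Benjamini-Hochberg adjusted p under 0.05, called 177 of 8790 genes higher (2.01%) and 153 lower (1.74%), or 3.75% in either direction. The 10 genes of the gate were left out. The median log2 difference over all genes tested was -0.0046. DESeq2 called 179 genes, and edgeR called 166 without Apcdd1+/- replicate 1. The sets differed in position, with a UMI of En1 in 23.3% of floor plate cells and 24.3% of Lmx1a negative cells but of Barhl2 in 39.3% and 7.07%, and the test was repeated in cells with En1 or En2. A member of a list that is low in floor plate cells entered a test only through its level in the other set. Where values of a gene are said below to be separated between cell sets, the share of all genes so separated was not counted.

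The floor plate list held 13 genes, of which 12 could be tested, and 5 were higher and 2 lower, with a median log2 difference of 0.80. The given markers, chosen on these data, made up 2 of the higher genes (Dkk2 and Slit2) and 1 of the lower (Spon1). Their calls are not independent support. Shh was at 131, 60.1, 81.4 and 146 CPM in floor plate cells, against 46.9, 31.2, 36.9 and 44.0 CPM in Lmx1a negative cells. Its lowest floor plate value lay above its highest value in the other set, and the log2 difference was 1.37 ± 0.19 (SE, n = 4 libraries, edgeR adjusted p = 2.83e-06). Foxa1, the close relative of Foxa2 that acts with it in the floor plate, was at 139, 108, 89.3 and 138 CPM in floor plate cells, against 36.9, 37.9, 41.1 and 55.0 CPM in Lmx1a negative cells. The Foxa1 difference was 1.48 ± 0.18 (edgeR adjusted p = 3.52e-07). Dkk2 separated the sets most among the given markers, with 504, 525, 324 and 692 CPM in floor plate cells, against 38.6, 15.6, 25.4 and 76.4 CPM in Lmx1a negative cells. Its difference was 3.72 ± 0.15 on the log2 scale (edgeR adjusted p = 9.08e-19). Slit2 was higher by 1.12 ± 0.11 and Sulf1, a heparan sulfate sulfatase that modulates Shh and Wnt signals at the cell surface, by 0.47 ± 0.10. The Sulf1 call was lost without Apcdd1+/- replicate 1, at 0.41 with an edgeR adjusted p of 0.0983.

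Spon1 and Slit1 went the other way, and Ntn1 stayed below the threshold. Spon1 was at 183, 216, 292 and 56.3 CPM in floor plate cells, against 337, 466, 404 and 413 CPM in Lmx1a negative cells, a difference of -1.11 ± 0.16 (edgeR adjusted p = 8.64e-06). All 4 floor plate values of Spon1 lay below the Lmx1a negative ones. Slit1, another Slit ligand, differed by -0.97 ± 0.18 (edgeR adjusted p = 0.000481). Ntn1, the netrin that attracts commissural axons, was at 160, 120, 125 and 132 CPM in floor plate cells, against 117, 84.0, 106 and 99.0 CPM in Lmx1a negative cells, a difference of 0.38 ± 0.14 (edgeR adjusted p = 0.152). The Spon1 and Slit1 calls were lost with both sets limited to cells with a UMI of En1 or En2. That limit left 19, 4, 13 and 4 floor plate cells. It did not make the sets alike in position, since Pax5, a factor of the midbrain and hindbrain boundary, still differed by -2.73 (edgeR adjusted p = 0.00026). Spon1 shrank there to -0.22 ± 0.19 (edgeR adjusted p = 0.814). Slit1 kept its size there with a wider SE, at -0.94 ± 0.37 (edgeR adjusted p = 0.258). Dkk2 was higher there by 3.01, Shh by 1.45, Foxa1 by 1.49 and Slit2 by 1.44, all past the threshold. En2, Otx2, Tcf7l2, Id2, Hey1, Hmga2 and Rgma were among the other named calls lost there (edgeR adjusted p 0.052 to 0.885). Their log2 differences there were -0.73, 0.65, -0.42, -1.27, -0.37, -1.07 and -1.58. That fit held fewer cells, and a lost call need not be a smaller difference. Rspo2, Wnt1, Barhl1, Barhl2, Nkx2-4, Nkx2-2, Gli1, Dll1, Thbd and other genes named elsewhere did not enter that test. Their calls were thus not checked in cells with En1 or En2.

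The list of midbrain dopaminergic progenitor genes held 17 members, 13 of them tested, with 6 higher, 1 lower and a median of 1.13. Lmx1b, the paralogue of Lmx1a, was at 74.1, 52.1, 75.4 and 47.8 CPM in floor plate cells, against 17.6, 13.4, 12.7 and 22.0 CPM in Lmx1a negative cells, with a difference of 1.94 ± 0.26 (edgeR adjusted p = 2.36e-06). Wnt1, which maintains midbrain identity and dopaminergic progenitors, was at 46.5, 24.0, 51.6 and 11.3 CPM in floor plate cells, against 5.03, 0, 5.44 and 0 CPM in Lmx1a negative cells. The Wnt1 difference was 3.57 ± 0.46 (edgeR adjusted p = 9.45e-07), and all 6 Wnt1 UMIs of Apcdd1+/- replicate 2 lay in 1 cell. Rspo2, a secreted enhancer of Wnt signalling, had the largest rise among called genes with at least 20 CPM in floor plate cells and 1 sign in all libraries, with 97.3, 72.1, 91.3 and 172 CPM in floor plate cells, against 6.71, 0.744, 4.84 and 2.59 CPM in Lmx1a negative cells. Its difference was 4.66 ± 0.31 (edgeR adjusted p = 6.46e-13). Otx2 rose by 0.72 ± 0.09, and Msx1, a homeodomain factor induced downstream of Lmx1a, by 2.43 ± 0.56 from levels of 11.6 to 16.9 CPM in floor plate cells. The Msx1 call was lost without WT replicate 2, at 2.06 with an edgeR adjusted p of 0.0713.

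En2 fell by 1.25 ± 0.28 on the log2 scale, a call that was lost without Apcdd1+/- replicate 1 (-1.18, edgeR adjusted p = 0.114). Corin, a protease used as a surface marker of the midbrain floor plate, was at 42.1, 20.0, 21.8 and 5.63 CPM in floor plate cells, against 9.64, 5.95, 9.68 and 15.5 CPM in Lmx1a negative cells. Its difference of 1.18 ± 0.41 missed the threshold (edgeR adjusted p = 0.129). Genes of dopamine neurons themselves were scarce. The gate requires Sox2 and allows at most 2 of the 6 neuronal genes, so that scarcity is not independent of the gate. Th, the rate-limiting enzyme of dopamine synthesis, was at 26.2, 16.0, 7.94 and 33.8 CPM in floor plate cells, against 0.605 to 3.88 CPM in Lmx1a negative cells, and was too low to be tested. All 12 Th UMIs of WT replicate 2 lay in 1 cell. Ddc, the next enzyme, fell by 1.98 ± 0.31 on the log2 scale (edgeR adjusted p = 3.24e-05), and Foxp2, a forkhead factor, rose by 0.73 ± 0.18 (edgeR adjusted p = 0.0102), but only by 0.27 in cells with En1 or En2, where the call was lost (edgeR adjusted p = 0.857).

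Of 11 genes of the subthalamic and mammillary floor plate, 10 were tested, 6 were higher and none was lower, with a median of 1.66. Wnt8b, a Wnt ligand, was at 247, 168, 276 and 492 CPM in floor plate cells, against 15.9, 10.4, 23.6 and 25.2 CPM in Lmx1a negative cells, a difference of 3.93 ± 0.16 (edgeR adjusted p = 9.08e-19). Barhl1 was at 61.0, 88.1, 105 and 127 CPM in floor plate cells, against 20.5, 14.9, 9.68 and 23.3 CPM in Lmx1a negative cells, a difference of 2.41 ± 0.25. Both genes were separated in every library. Barhl2 was higher by 3.19 ± 0.25 and Dbx1, a homeodomain factor of progenitors, by 2.59 ± 0.23. Nkx2-4, an NK2 homeodomain factor of the ventral forebrain and not on the list, was at 110, 104, 65.5 and 149 CPM in floor plate cells, against 4.84 to 7.44 CPM in Lmx1a negative cells. Its relative Nkx2-1 was higher by 1.83 ± 0.34, a call that was lost without Apcdd1+/- replicate 1 (1.55, edgeR adjusted p = 0.0609).

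The start regions of 4 genes were searched, and those of 3 are printed to show which short core motifs lie there, Foxa1 for the floor plate and Barhl1 and Wnt8b for the caudal diencephalic genes. Sequences are RefSeq's, from 250 bases before to 50 bases after the start, on build GRCm38.p6, and read 5′ to 3′ on the gene's own strand with the motif in capitals. The motifs searched on both strands were the forkhead core TGTTTAC, which reads as GTAAACA on the opposite strand, and the homeodomain core TAATTA, which reads the same on both, and each of the printed windows held 1 match. The window of Dkk2 held neither motif and is not printed. Foxa1 is on the minus strand at chr12:57546062-57546361, with a forkhead core 141 bases before the start, and this window lies inside the gene as GENCODE vM21 places it. Barhl1 is on the minus strand at chr2:28916619-28916918, with a homeodomain core 29 bases after the start. Wnt8b is on the plus strand at chr19:44493222-44493521, with a homeodomain core 36 bases before the start.
Foxa1: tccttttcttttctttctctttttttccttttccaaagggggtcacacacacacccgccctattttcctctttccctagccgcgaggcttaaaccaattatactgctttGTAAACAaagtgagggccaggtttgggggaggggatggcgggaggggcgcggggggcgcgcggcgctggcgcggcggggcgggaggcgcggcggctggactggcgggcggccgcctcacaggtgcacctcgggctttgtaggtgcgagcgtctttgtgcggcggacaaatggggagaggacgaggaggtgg
Barhl1: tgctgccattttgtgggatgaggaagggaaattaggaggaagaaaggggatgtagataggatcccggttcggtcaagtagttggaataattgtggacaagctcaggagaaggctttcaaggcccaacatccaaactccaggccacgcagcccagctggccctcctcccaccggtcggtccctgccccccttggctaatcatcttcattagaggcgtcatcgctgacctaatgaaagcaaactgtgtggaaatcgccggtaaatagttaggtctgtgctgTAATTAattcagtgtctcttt
Wnt8b: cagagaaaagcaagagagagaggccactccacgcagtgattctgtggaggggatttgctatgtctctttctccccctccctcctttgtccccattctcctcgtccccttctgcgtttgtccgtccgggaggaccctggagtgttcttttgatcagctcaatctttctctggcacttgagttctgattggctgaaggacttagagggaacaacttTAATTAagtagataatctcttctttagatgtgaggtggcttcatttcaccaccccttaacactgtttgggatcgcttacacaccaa
TGTTTAC was found in 3.65% of 32851 promoters of this length, in 6 of 194 promoters (3.09%) of the genes higher than in Lmx1a negative cells and in 4 of 157 (2.55%) of those lower. TAATTA was found in 5.29% of all promoters, in 10 of the 194 (5.15%) and in 3 of the 157 (1.91%). The called genes' shares were thus at or under those of all promoters, and a match is a description of letters, not of a bound site.

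Factors of the neighbouring ventral domains were among the genes lower than in Lmx1a negative cells. Of 15 genes of the ventral midbrain basal plate, 6 were tested, none was higher and 4 were lower, with a median of -1.93. In the genotype fit, which holds floor plate cells only, 1 of the 15 could be tested. Members low in floor plate cells entered here through their level in Lmx1a negative cells, so the count and median are not independent support. Nkx6-2, a homeodomain factor of ventral progenitors, was at 5.81, 0, 0 and 0 CPM in floor plate cells, against 83.4, 108, 119 and 92.6 CPM in Lmx1a negative cells, a difference of -5.42 ± 0.41 (edgeR adjusted p = 9.89e-12). Its 4 UMIs in floor plate cells all came from Apcdd1+/- replicate 1. Nkx2-2, which marks the domain next to the floor plate, was at 2.81 to 8.01 CPM in floor plate cells, against 32.7 to 53.1 CPM in Lmx1a negative cells. Nkx2-9 fell by 2.74 ± 0.30 and Nkx6-1 by 1.11 ± 0.20 on the log2 scale, and the Nkx6-1 call was lost in cells with En1 or En2 (-0.85, edgeR adjusted p = 0.382). Others of the 10 genes with the largest fall were Pax5, a paired-box factor of the midbrain and hindbrain boundary, which fell by 3.07 ± 0.40, Shisa3, which fell by 3.02 ± 0.46, and Cbln1, a secreted synaptic organiser, which fell by 2.75 ± 0.34. Phox2a, a factor of cranial motor neurons, had no UMI in floor plate cells, which put it at least 10.9-fold lower against a floor of 3 UMIs over the group (1.67 CPM). Ptx3, a secreted pattern recognition protein, had 2 UMIs in floor plate cells and 350 in Lmx1a negative cells, whose pooled level was 45.4 times as high (exact 95% interval 12.5 to 376, counting error only).

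**Figure D1:**
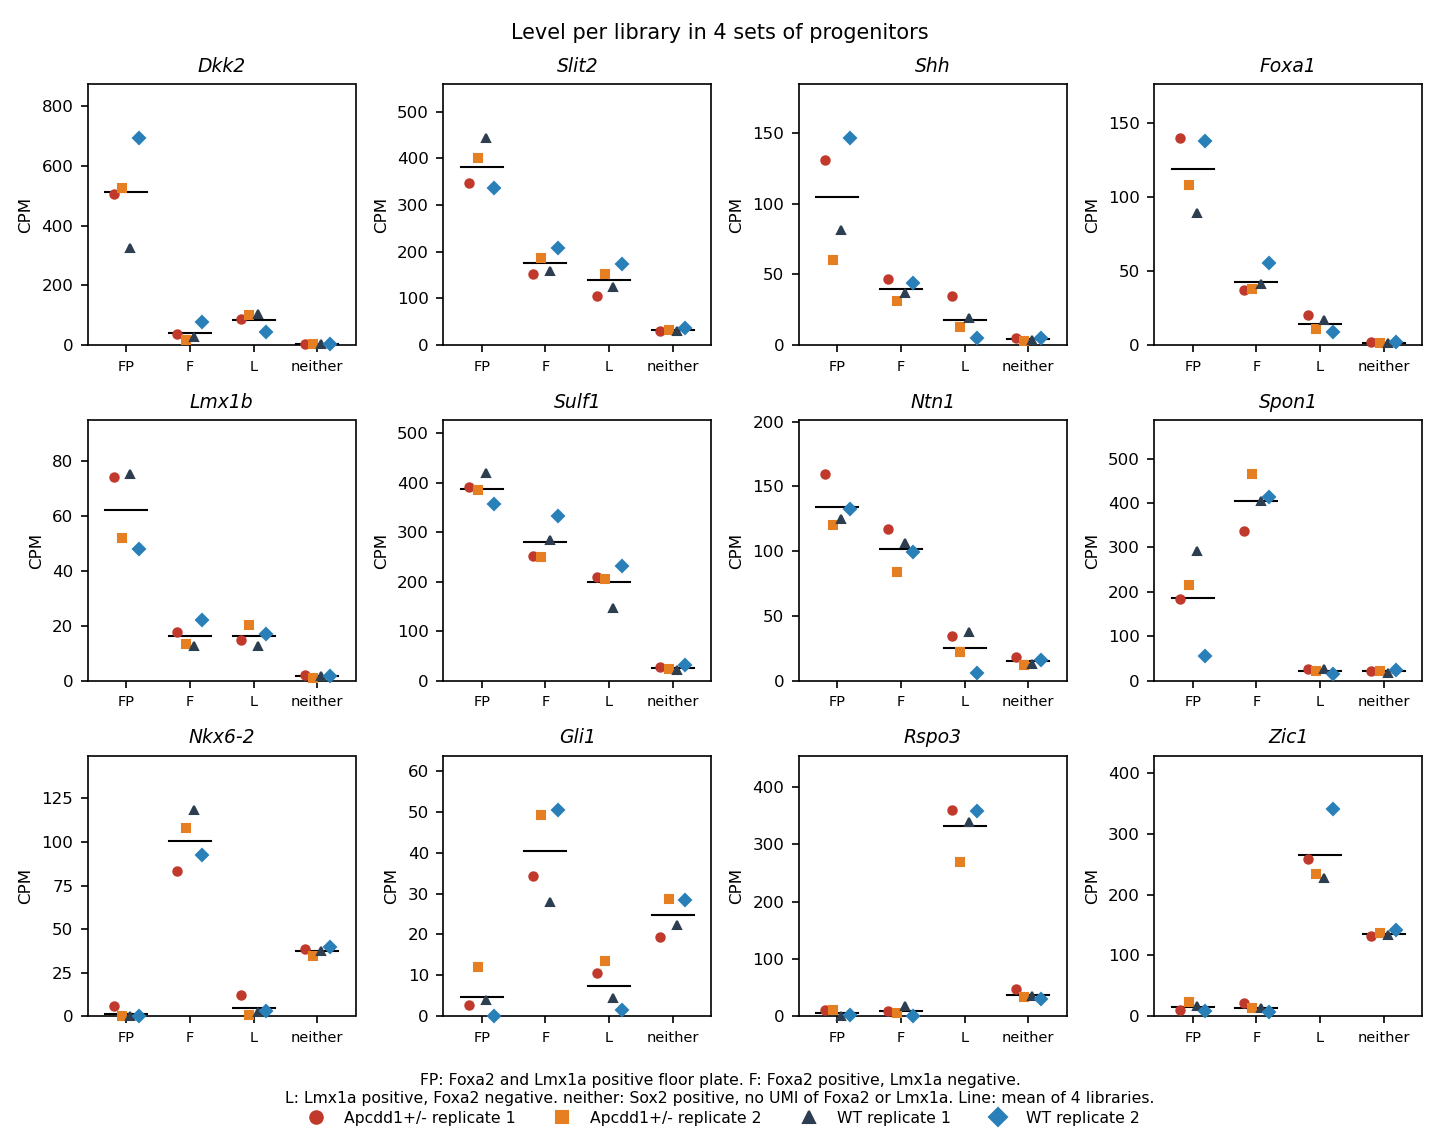
Levels in CPM (vertical axes, linear, from 0) of 12 genes in 4 sets of Sox2 positive progenitors (horizontal axes), 1 point per library, with the line at the mean of 4 libraries. Dkk2, Slit2, Foxa1 and Lmx1b are highest in floor plate cells in every library, Spon1 is at 56.3 to 292 CPM in floor plate cells against 337 to 466 CPM in Lmx1a negative cells, Nkx6-2 and Gli1 are low in floor plate cells, and Rspo3 and Zic1 are high in Foxa2 negative cells.

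Shh ligand was higher in floor plate cells while transcripts that report the response to it were lower. Among 15 genes of the pathway, 9 were tested, Shh was higher and 3 were lower. Ptch1, the Shh receptor and itself a target, was at 74.1, 104, 83.4 and 73.2 CPM in floor plate cells, against 138, 169, 178 and 246 CPM in Lmx1a negative cells, a difference of -1.12 ± 0.15 (edgeR adjusted p = 2.3e-06). Gli1, a transcriptional target and effector, was at 2.91, 12.0, 3.97 and 0 CPM in floor plate cells, against 34.4, 49.1, 27.8 and 50.5 CPM in Lmx1a negative cells, a difference of -3.24 ± 0.44. The values of both genes did not overlap between the sets, and the share of all genes for which that held was not counted. In cells with En1 or En2, the Ptch1 difference was -0.78 (edgeR adjusted p = 0.124).

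Wnt genes moved in both directions. Of 15 ligands and R-spondins, 8 were tested, with Wnt1, Wnt7b, Wnt8b and Rspo2 higher and Wnt7a lower. Wnt5a, which acts mostly outside the beta-catenin branch, was at 85.7, 64.1, 137 and 144 CPM in floor plate cells, against 116, 103, 75.0 and 117 CPM in Lmx1a negative cells, and did not pass the test (0.07 ± 0.18, edgeR adjusted p = 0.929). Among 30 receptors and inhibitors, 13 were tested, 3 were higher (Apcdd1, Dkk2 and Dkk3) and 3 lower (Fzd7, Lgr4 and Sfrp1). Apcdd1 was at 283, 369, 445 and 346 CPM in floor plate cells, against 171, 115, 167 and 164 CPM in Lmx1a negative cells, higher in 4 of 4 libraries by 1.17 ± 0.12 (edgeR adjusted p = 1.1e-08). In cells with En1 or En2, Apcdd1 differed by 0.73 (edgeR adjusted p = 0.0677). Sfrp1, a secreted frizzled-related protein, was at 77.0, 28.0, 43.7 and 115 CPM in floor plate cells, against 170, 222, 210 and 214 CPM in Lmx1a negative cells, a difference of -1.57 ± 0.19. Of 16 genes listed as beta-catenin targets, 12 were tested, with 4 higher (Sp5, Ccnd2, Msx1 and Apcdd1) and 3 lower (Tcf7l2, Ccnd1 and Id2). Axin2, the widely used readout of that branch, was at 33.4, 32.0, 13.9 and 31.0 CPM in floor plate cells, against 14.3, 8.92, 13.3 and 14.2 CPM in Lmx1a negative cells, and missed the threshold (1.04 ± 0.35, edgeR adjusted p = 0.0975). The calls of Wnt7a, Wnt7b, Dkk3, Fzd7, Lgr4, Sp5, Tcf7l2 and Id2 were each lost in 2 or 3 of the 4 fits that left out 1 library, with edgeR adjusted p between 0.0516 and 0.409 there.

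Ccnd1, the G1 cyclin, was at 349, 328, 403 and 363 CPM in floor plate cells, against 778, 840, 859 and 844 CPM in Lmx1a negative cells, a difference of -1.20 ± 0.08 (edgeR adjusted p = 5.79e-13). Ccnd2, its paralogue, rose by 0.64 ± 0.07 (edgeR adjusted p = 5.28e-08), a call that was lost in cells with En1 or En2 (0.28, edgeR adjusted p = 0.409), where Ccnd1 differed by -1.25. None of 43 S phase genes passed the test and 2 of 52 G2/M genes were higher (Ube2c and Cenpf), a share close to the 3.75% over all genes, and neither of these calls held in cells with En1 or En2 (edgeR adjusted p 0.994 and 0.824). Of 21 Notch pathway genes, 16 were tested, none was higher and 6 were lower, with a median of -0.56. Hes5, a Notch effector, was at 29.1, 64.1, 27.8 and 5.63 CPM in floor plate cells, against 94.3, 138, 127 and 175 CPM in Lmx1a negative cells, a difference of -2.11 ± 0.25 (edgeR adjusted p = 1.65e-07). Nrarp, a Notch target, fell by 1.96 ± 0.26 and the ligand Dll1 by 1.70 ± 0.34. Dll3, Dlk1 and Hey1 also passed, but each call was lost in 1 or 2 of the fits that left out a library (edgeR adjusted p 0.0536 to 0.324 there). The immediate early genes Fos and Jun, which dissociation can induce, were higher by 0.76 ± 0.20 and 0.36 ± 0.08, and their part in other differences was not tested.

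Among 16 progenitor genes 1 was higher and 7 were lower. Fabp7, a lipid-binding protein of radial glia, was at 69.7, 120, 85.4 and 47.8 CPM in floor plate cells, against 632, 478, 646 and 540 CPM in Lmx1a negative cells, a difference of -2.94 ± 0.14 (edgeR adjusted p = 2.51e-17). Hmga2, a chromatin protein of early progenitors, fell by 1.10 ± 0.13 and Pax6, a factor excluded from the floor plate, by 2.54 ± 0.53. Nes and Sox3 were lower by 0.34 and 0.77 on the log2 scale over all cells and changed sign in cells with En1 or En2, at 0.24 and 0.04 with edgeR adjusted p of 0.767 and 0.99. The Nes call was also lost without Apcdd1+/- replicate 1 (edgeR adjusted p = 0.274) or WT replicate 1 (0.0821). Among 33 axon guidance genes, 24 were tested, with 5 higher and 3 lower. Nrp2, a receptor of class 3 semaphorins, was at 82.8, 156, 125 and 135 CPM in floor plate cells, against 28.9, 26.8, 36.3 and 26.5 CPM in Lmx1a negative cells, a difference of 1.98 ± 0.20, and Efnb2, Epha3 and Epha7 of the ephrin system rose by 1.69, 1.64 and 1.52. Rgma, a repulsive guidance molecule, fell by 1.21 ± 0.19. Bmp7, a BMP ligand, was at 112, 76.1, 101 and 84.4 CPM in floor plate cells, against 21.4, 17.1, 16.3 and 18.1 CPM in Lmx1a negative cells, and rose by 2.35 ± 0.22 (edgeR adjusted p = 1.07e-09).

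To see what goes with Foxa2 among Lmx1a positive progenitors, the floor plate cells were compared in the same way with the 440 cells that passed the gate with no Foxa2 UMI (Foxa2 negative cells). edgeR called 295 of 8391 genes higher (3.52%) and 238 lower (2.84%), or 6.35% in either direction, with a median log2 difference over all genes of 0.0017. DESeq2 called 285 genes. This comparison uses the same floor plate sums as the one against Lmx1a negative cells, so their values are given side by side and are not independent of each other.

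Every floor plate gene that passed was higher, 10 of 11 tested, with a median of 2.37. Given markers, chosen on these data, made up 3 of the 10 (Spon1, Dkk2 and Slit2). Shh was at 34.4, 12.5, 18.9 and 4.88 CPM in Foxa2 negative cells, so that the floor plate cells with 60.1 to 146 CPM were higher by 2.48 ± 0.29 (edgeR adjusted p = 1.98e-07). Spon1, lower than in Lmx1a negative cells, was here higher by 2.95 ± 0.19 (edgeR adjusted p = 1.6e-12), with 14.6 to 26.9 CPM in Foxa2 negative cells. Ntn1 rose by 2.37 ± 0.25, Foxa1 by 2.93 ± 0.24, Dkk2 by 2.51 ± 0.19, Slit2 by 1.45 ± 0.12 and Slit1 by 1.95 ± 0.27. Ferd3l, a basic helix-loop-helix factor of the ventral midbrain floor plate, was at 24.7, 20.0, 23.8 and 28.1 CPM in floor plate cells, against 3.33, 0.959, 3.43 and 0 CPM in Foxa2 negative cells, a difference of 3.37 ± 0.53. The summed level of the 13 floor plate genes was 2229, 2227, 2204 and 2201 CPM in floor plate cells, against 1352 to 1679 CPM in Lmx1a negative cells and 526 to 571 CPM in Foxa2 negative cells. This sum included the given markers Dkk2, Slit2 and Spon1 and the gate gene Foxa2, which Foxa2 negative cells lack by the gate. Foxa2 had a mean of 214 CPM in Apcdd1+/- and 198 CPM in WT floor plate cells. Part of the gap to Foxa2 negative cells was thus set by the gate.

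Lmx1b was at 15.0, 20.1, 12.6 and 17.1 CPM in Foxa2 negative cells, and the floor plate cells were higher by 1.97 ± 0.26 (edgeR adjusted p = 2.67e-06). Wnt5a, which had not passed against Lmx1a negative cells, rose by 2.35 ± 0.25 (edgeR adjusted p = 4.51e-08), with 10.6 to 25.8 CPM in Foxa2 negative cells. Rspo2 and Wnt8b were also abundant in Foxa2 negative cells, at 121, 107, 167 and 135 CPM and at 385, 339, 367 and 341 CPM, and neither passed (-0.37 ± 0.17, edgeR adjusted p = 0.249, and -0.36 ± 0.14, edgeR adjusted p = 0.16). Wnt1 did not pass either, at 0.19 ± 0.34. Apcdd1 was at 177, 81.5, 173 and 143 CPM in Foxa2 negative cells and was higher in floor plate cells of 4 of 4 libraries, by 1.24 ± 0.14 (edgeR adjusted p = 1.07e-07). Barhl1 rose by 1.78 ± 0.27 and Barhl2 by 1.32 ± 0.25. En1, Otx2, Neurog2, Nkx2-1 and Dbx1 also passed, but each call was lost when 1 or more libraries were left out, with edgeR adjusted p between 0.0509 and 0.359 in those fits.

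The list of BMP and roof plate genes held 27 members, 19 of them tested, and 17 were lower and none higher, with a median of -3.14. In the genotype fit, which holds floor plate cells only, 4 of the 27 could be tested. Members low in floor plate cells entered here through their level in Foxa2 negative cells. Their count and median are thus not independent support. Rspo3, an R-spondin of the roof plate and hem, was at 11.6, 12.0, 0 and 2.81 CPM in floor plate cells, against 361, 269, 339 and 358 CPM in Foxa2 negative cells, a difference of -5.70 ± 0.26 (edgeR adjusted p = 7.59e-16). Wnt3a, a ligand of the hem and roof plate, had no UMI in floor plate cells and 26.1 CPM pooled over Foxa2 negative cells, at least 15.6-fold lower against the floor of 3 UMIs over the group. Zic1, a zinc finger factor of the dorsal neural tube, was at 10.2, 24.0, 17.9 and 8.44 CPM in floor plate cells, against 258, 234, 227 and 340 CPM in Foxa2 negative cells. The values of Rspo3 and of Zic1 did not overlap between the sets, and the share of all genes for which that held was not counted. Msx1 was lower here by 2.35 ± 0.27 on the log2 scale, with 46.9 to 137 CPM in Foxa2 negative cells. Rspo1, Zic5 and Id1, a target of BMP signalling, fell by 5.03, 4.50 and 4.68, and the forebrain factors Pax6, Lhx2 and Dmrt3 by 5.27, 4.92 and 4.85. Galnt12, a glycosyltransferase, had 1 UMI in floor plate cells and was 80.8 times as high in Foxa2 negative cells (exact 95% interval 14.4 to 3205, counting error only).

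Receptors of Shh that are known to be repressed by the signal were lower than in Foxa2 negative cells. Gas1 was at 4.36, 20.0, 3.97 and 2.81 CPM in floor plate cells, against 107, 122, 94.5 and 185 CPM in Foxa2 negative cells, a difference of -4.30 ± 0.31 (edgeR adjusted p = 9.15e-12). Cdon fell by 2.15 ± 0.23, although it was at 19.7 to 56.1 CPM in floor plate cells against 12.3 to 20.0 CPM in Lmx1a negative cells (1.06 ± 0.32, edgeR adjusted p = 0.0572), and Gli3, the main repressor of the pathway, by 3.89 ± 0.34. Ptch1 was higher than in Foxa2 negative cells, by 1.15 ± 0.21 (edgeR adjusted p = 0.00025). Boc passed at -1.72 ± 0.43, a call lost without Apcdd1+/- replicate 1 or WT replicate 2 (edgeR adjusted p 0.097 and 0.078). Mt1, a metallothionein, was 1 of the 10 genes with the largest fall, but its Foxa2 negative values of 6.10, 420, 368 and 9.75 CPM were high in the same 2 libraries in which erythroid markers summed to 28923 and 22923 CPM, against 36.6 and 79.7 CPM in the others. In those libraries 4 and 3 Foxa2 negative cells held over 1% haemoglobin or Ttr UMIs, and without them Mt1 was too low to enter the test.

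Genes outside the lists with the largest rises against both sets included Thbd (thrombomodulin), a surface receptor for thrombin. Thbd was at 39.2, 84.1, 23.8 and 19.7 CPM in floor plate cells, against 3.35, 1.49, 3.02 and 2.59 CPM in Lmx1a negative cells (3.72 ± 0.43, edgeR adjusted p = 1.65e-07) and 2.77, 0.959, 0 and 0.813 CPM in Foxa2 negative cells (4.81 ± 0.52, edgeR adjusted p = 4.69e-08). The transmembrane protein genes Tril and Lrtm1 rose by 2.97 ± 0.25 and 0.77 ± 0.18 against Lmx1a negative cells and by 2.03 ± 0.20 and 3.11 ± 0.20 against Foxa2 negative cells. Necab1, a calcium-binding protein, rose by 3.58 ± 0.36 and 2.62 ± 0.41. Glis3, a zinc finger factor, was among the 10 largest rises against Lmx1a negative cells (3.02 ± 0.37), and Upp1, Jhy, Lgi1 and Cacna2d3 were among those against Foxa2 negative cells, by 3.74 ± 0.46, 3.40 ± 0.53, 3.26 ± 0.48 and 3.04 ± 0.29. Fam183b, a gene of motile cilia, was at 77.0, 132, 85.4 and 25.3 CPM in floor plate cells, against 4.43, 1.92, 13.7 and 0.813 CPM in Foxa2 negative cells (3.73 ± 0.36), and did not differ past the threshold from Lmx1a negative cells (-0.10 ± 0.18).

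**Figure D2:**
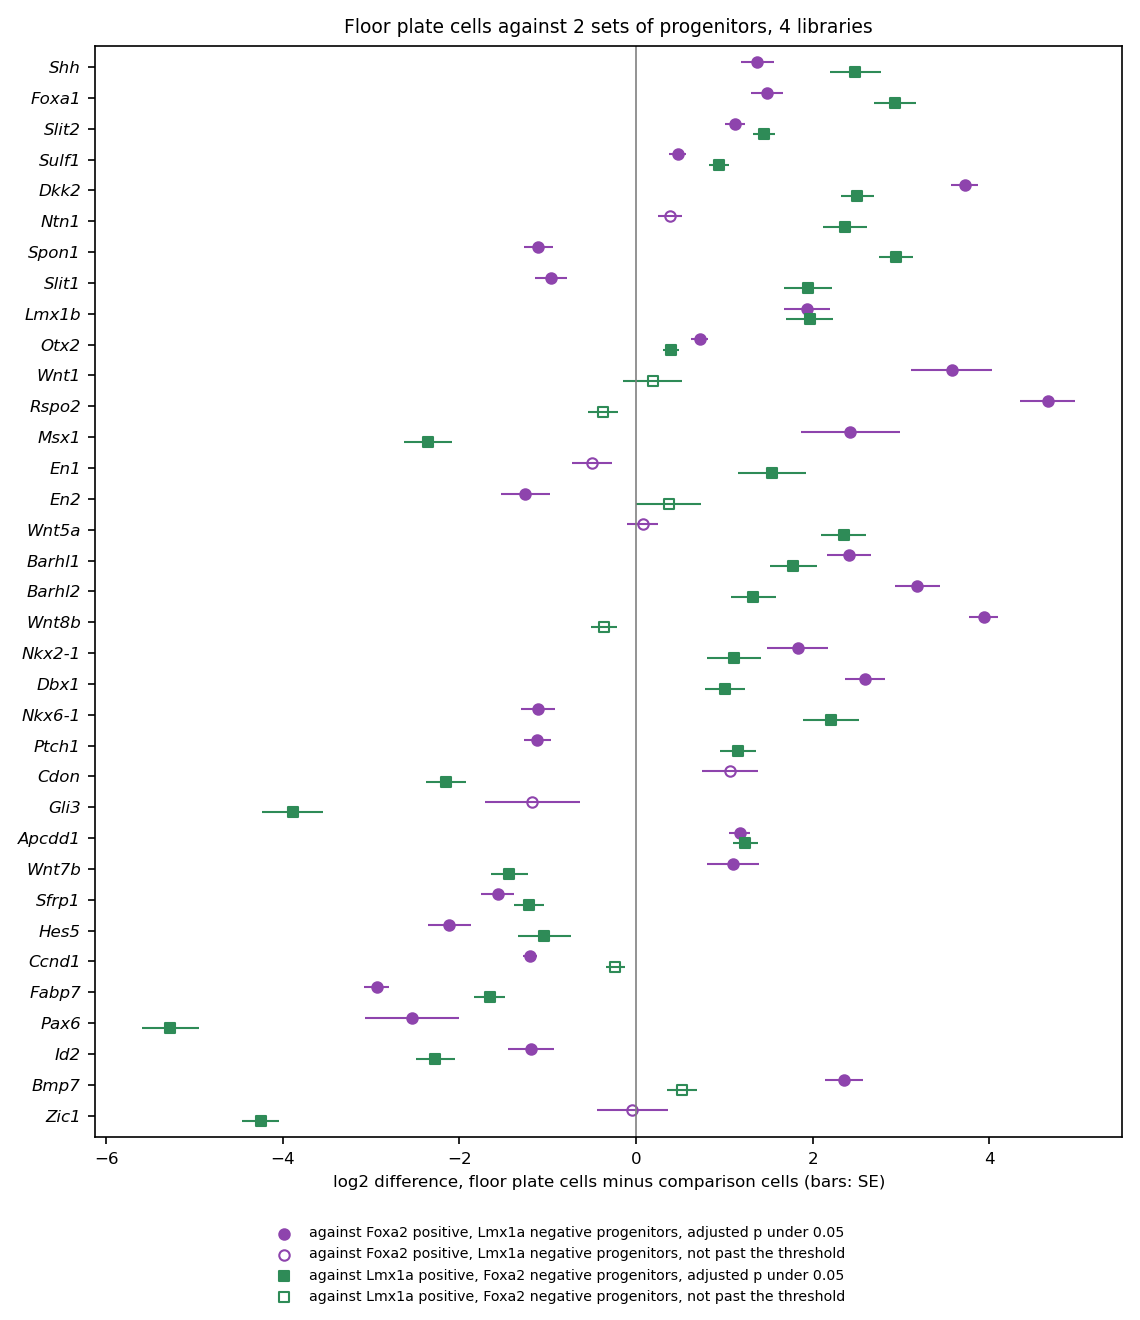
Log2 differences (horizontal axis) of 35 genes between floor plate cells and Lmx1a negative cells (circles) or Foxa2 negative cells (squares), with bars of 1 SE from edgeR fits over 4 libraries and open symbols for an adjusted p of 0.05 or more. Shh, Foxa1, Slit2, Dkk2, Lmx1b and Apcdd1 are higher than in both sets, Spon1, Slit1, Nkx6-1 and Ptch1 are lower than in Lmx1a negative cells and higher than in Foxa2 negative cells, and Msx1 and Wnt7b are the other way round.

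The floor plate cells were also compared by their position genes. The classes by En1 or En2 and by Barhl1 or Barhl2 were defined after their values were seen, so the levels are given without a test, pooled over the libraries with exact Poisson intervals that cover counting error only. Cells with only the En pair came from the 4 libraries as 18, 4, 12 and 4 cells, and cells with only the Barhl pair as 24, 11, 19 and 15 cells. Corin was at 72.8 CPM (50.4 to 102) in En cells and at 2.15 CPM (0.261 to 7.77) in Barhl cells. Aldh1a1, a retinoic acid synthesis enzyme of dopaminergic progenitors, was at 87.7 CPM (63.0 to 119) in En cells with no UMI in Barhl cells. In each library both genes were higher in En cells, although Aldh1a1 ranged from 12.9 CPM in WT replicate 2 to 185 CPM in WT replicate 1.

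Several floor plate genes were at different levels in the classes. Slit2 was at 505, 1243, 561 and 463 CPM in En cells, against 198, 201, 296 and 271 CPM in Barhl cells. Spon1 was at 368, 555, 492 and 154 CPM in En cells, against 69.5, 130, 185 and 26.0 CPM in Barhl cells. The whole floor plate list summed to 2800, 4704, 2879 and 2711 CPM in En cells, against 1514, 1597, 1567 and 1985 CPM in Barhl cells. Other members were close to level. Dkk2 was at 471 CPM (411 to 537) in En cells and 515 CPM (470 to 564) in Barhl cells, Foxa1 at 133 CPM in En cells and 122 CPM in Barhl cells, and Lmx1a, a gate gene, at 299.6 CPM in En cells and 303 CPM in Barhl cells. Shh was at 141 CPM (109 to 180) in En cells and 92.5 CPM (74.0 to 114) in Barhl cells, in that order in 3 of 4 libraries. Apcdd1 was at 295 CPM (248 to 349) in En cells and 402 CPM (363 to 445) in Barhl cells, although Apcdd1+/- replicate 1 had 328 CPM in En cells and 234 CPM in Barhl cells.

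Other genes, also chosen after their values were seen, were higher in Barhl cells. Wnt8b was at 15.1, 0, 34.2 and 116 CPM in En cells, against 410, 201, 524 and 617 CPM in Barhl cells. Nkx2-4 was at 6.42 CPM in En cells and 181 CPM in Barhl cells, and 3 of the 4 libraries had none in En cells. Sp5, a Wnt target, was at 2.14 CPM in En cells and 82.8 CPM in Barhl cells. Rspo2 was at 36.4 CPM in En cells and 147 CPM in Barhl cells, and Wnt7b at 4.28 CPM in En cells and 49.5 CPM in Barhl cells. Otx2 was at 357 CPM in En cells and 539 CPM in Barhl cells. Each of these genes was higher in Barhl cells of 4 of 4 libraries. Some other Wnt ligands were not, with Wnt1 at 68.5 CPM in En cells and 24.7 CPM in Barhl cells, Wnt5a at 137 CPM in En cells and 94.7 CPM in Barhl cells, and Wnt5b at 59.9 CPM in En cells and 47.3 CPM in Barhl cells.

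Genes of dividing cells followed the same split. Top2a, a topoisomerase of late S phase to mitosis, was at 343, 133, 438 and 450 CPM in En cells, against 867, 636, 1017 and 1197 CPM in Barhl cells. The 53 G2/M genes summed to 11236, 6679, 10538 and 14161 CPM in En cells, against 14079, 12905, 15484 and 15329 CPM in Barhl cells, whereas the 43 S phase genes summed to 5359 to 7069 CPM in En cells and 5842 to 7140 CPM in Barhl cells. Fos, an immediate early gene that dissociation can induce, was at 216 CPM (176 to 263) in En cells and 30.1 CPM (20.0 to 43.5) in Barhl cells.

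**Figure D3:**
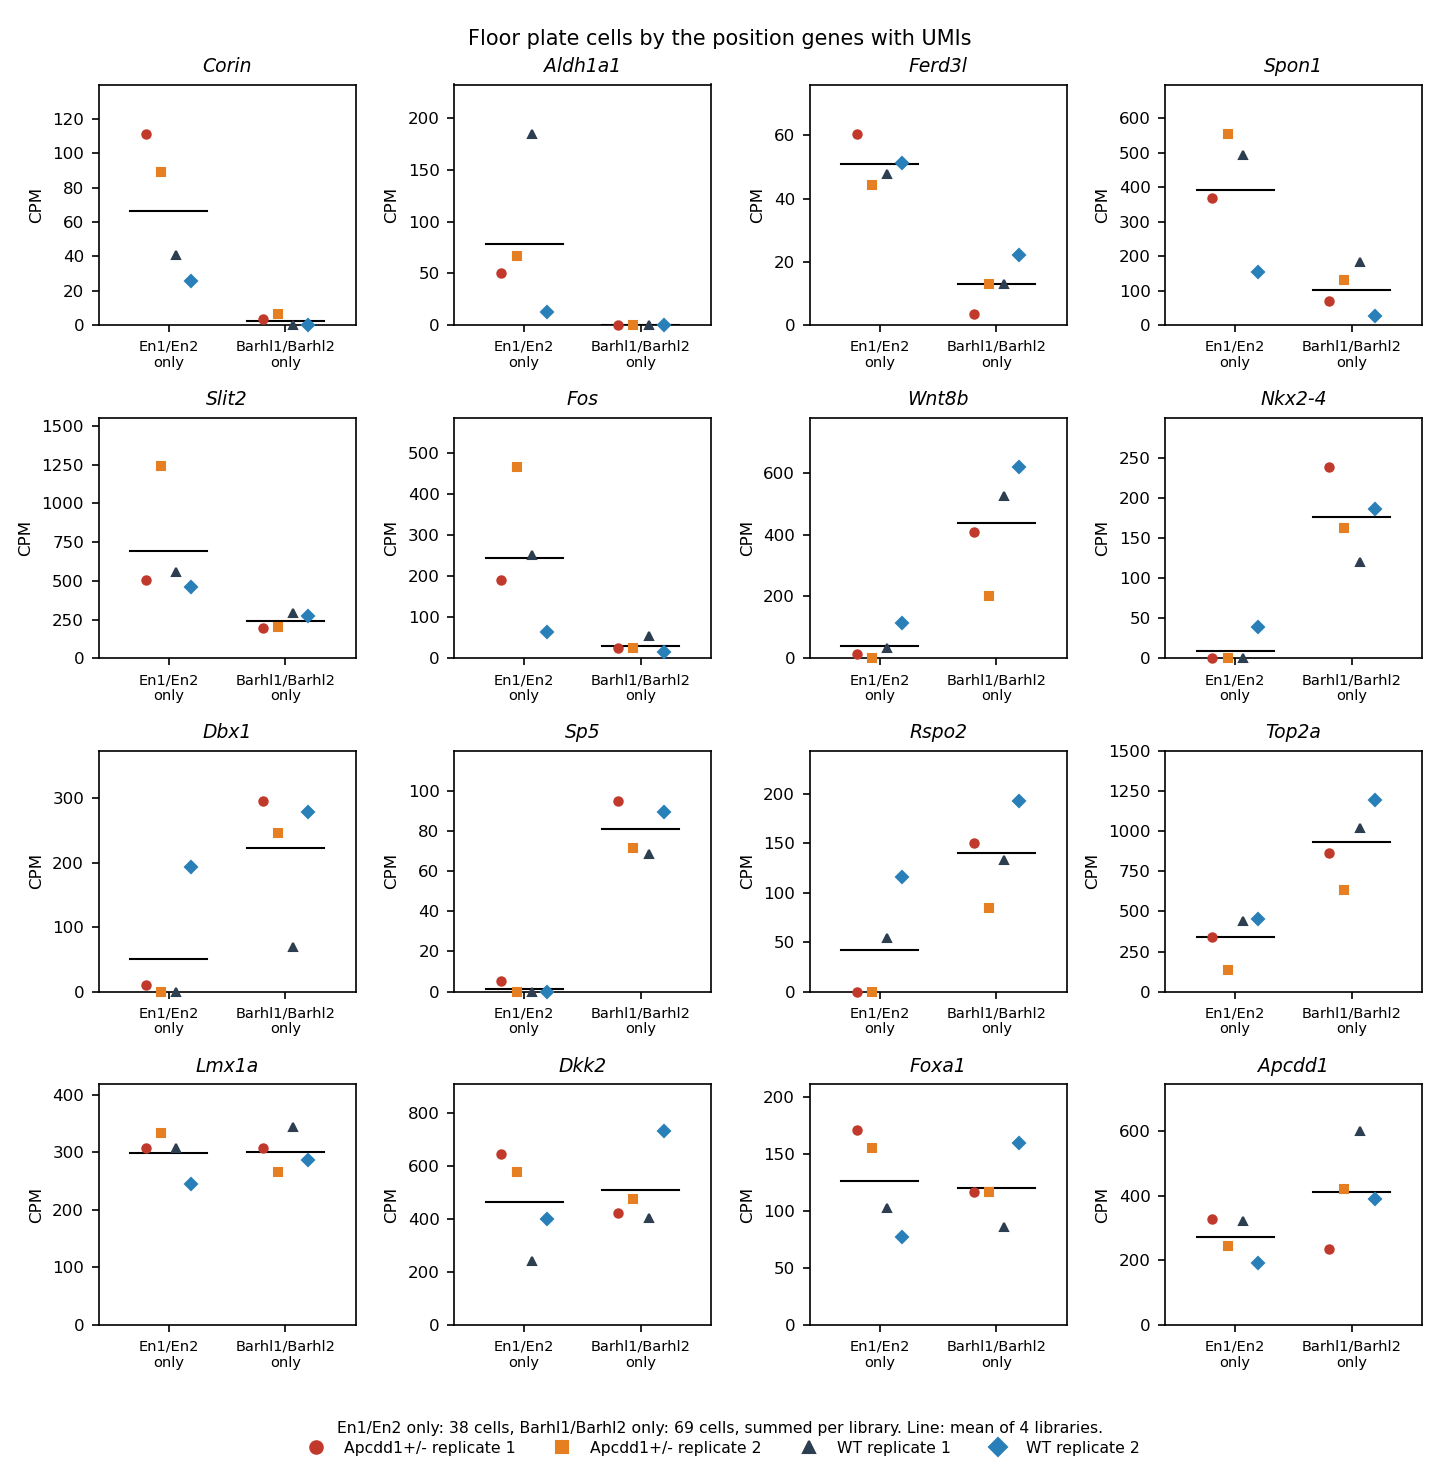
Levels in CPM (vertical axes, linear, from 0) of 16 genes in floor plate cells with UMIs only of En1 or En2 (38 cells) and only of Barhl1 or Barhl2 (69 cells), 1 point per library, with the line at the mean of 4 libraries. Corin, Aldh1a1, Ferd3l, Spon1, Slit2 and Fos are higher in En cells and Wnt8b, Nkx2-4, Dbx1, Sp5, Rspo2 and Top2a in Barhl cells of every library, while Lmx1a, Dkk2 and Foxa1 overlap.

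Levels were also set out along Lmx1a itself. Cells with 1 Lmx1a UMI and cells with 3 or more were not tested against each other, since the 4 libraries gave only 13, 6, 6 and 4 cells with 1 UMI. Pooled over libraries, Shh was at 119 CPM in cells with 1 UMI, 99.5 CPM in cells with 2 and 111 CPM in cells with 3 or more. By the same 3 steps Foxa1 was at 139, 124 and 115 CPM and Dkk2 at 561, 443 and 490 CPM. Wnt1 was at 12.9, 33.2 and 45.9 CPM and Rspo2 at 48.4, 96.5 and 126 CPM, both highest in the cells with most Lmx1a. Median depth was 9587, 9806 and 11119 UMIs, and its part in these levels was not tested.

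The genotypes were compared first by the share of floor plate cells. They made up 0.726% (Wilson 95% interval 0.574 to 0.918) and 0.361% (0.234 to 0.557) of kept cells in the Apcdd1+/- libraries, against 0.655% (0.483 to 0.888) and 0.677% (0.438 to 1.04) in the WT libraries. The WT values lay between the Apcdd1+/- values. The difference of the means, Apcdd1+/- minus WT, was -0.122 percentage points (two-sided exact permutation p = 1.0, where 2 libraries against 2 cannot give less than 0.33). As a share of all Foxa2 positive progenitors of the gate, floor plate cells made up 22.2% and 13.2% in the Apcdd1+/- libraries, against 23.3% and 16.7% in the WT libraries (exact permutation p = 0.667). The direction rested on Apcdd1+/- replicate 2, without which the difference was 0.0604 percentage points.

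edgeR's quasi-likelihood test on the summed floor plate cells called 0 of 6411 genes between the genotypes (0.0%), and 217 genes (3.38%) had an unadjusted p under 0.05. DESeq2 also called 0, with 39 genes at an unadjusted p under 0.05. Fits that left out 1 library called 8 genes without Apcdd1+/- replicate 1 (Foxj1 and Top2a among them), 2 without Apcdd1+/- replicate 2 (Crabp1 and Rpl35), 9 without WT replicate 1 (Crabp1, Wnt8b, Dkk3 and Spon1 among them) and 3 without WT replicate 2 (Dbx1, Deup1 and Ttr). The second library of each genotype held 20 floor plate cells. In simulated data the genotype fit recovered 31% of 2-fold changes and 84% of 4-fold changes, so most 2-fold changes would be missed.

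Apcdd1 was at 283 and 369 CPM in Apcdd1+/- floor plate cells, against 445 and 346 CPM in WT floor plate cells. The values overlapped, and the log2 difference was -0.32 ± 0.21 (95% interval -0.73 to 0.10, edgeR adjusted p = 1.0). Shh was at 131 and 60.1 CPM in Apcdd1+/- cells, against 81.4 and 146 CPM in WT cells (-0.10, -0.80 to 0.60). Foxa1 was at 139 and 108 CPM in Apcdd1+/- cells, against 89.3 and 138 CPM in WT cells (0.19, -0.38 to 0.77). Dkk2 was at 504 and 525 CPM in Apcdd1+/- cells, against 324 and 692 CPM in WT cells (0.04, -0.45 to 0.54). These 3 intervals held 0. Slit3, a Slit ligand of the same list, was at 49.4 and 72.1 CPM in Apcdd1+/- cells, against 33.7 and 25.3 CPM in WT cells, with an interval that did not hold 0 (0.95, 0.09 to 1.81) and an edgeR adjusted p of 1.0. Differences of 2-fold either way lay outside the intervals of Slit2 (-0.49 to 0.31), Sulf1 (-0.38 to 0.37), Ntn1 (-0.35 to 0.69), Lmx1b (-0.67 to 0.80) and Otx2 (-0.49 to 0.20). A 2-fold rise lay inside those of Wnt1 (-0.91 to 1.30) and En1 (-0.77 to 1.09), and a 2-fold fall inside that of Rspo2 (-1.19 to 0.10). Of the 12 floor plate genes tested, 6 had a positive and 6 a negative difference, with a median of 0.02, and the 11 dopaminergic progenitor genes tested had a median of 0.07.

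Genes with the smallest unadjusted p are given as values, since none passed. Crabp1, a retinoic acid binding protein, was at 129 and 52.1 CPM in Apcdd1+/- cells, against 27.8 and 11.3 CPM in WT cells (2.24 ± 0.50, edgeR adjusted p = 1.0). Igf2, a growth factor, was at 59.6 and 48.1 CPM in Apcdd1+/- cells, against 13.9 and 11.3 CPM in WT cells (2.09 ± 0.51). Foxj1, the regulator of motile cilia that the floor plate also expresses, was at 88.6 and 160 CPM in Apcdd1+/- cells, against 45.7 and 39.4 CPM in WT cells (1.45 ± 0.37). For each of these genes both Apcdd1+/- libraries lay above both WT libraries. That order has an exact permutation p of 0.33 with 2 libraries against 2. Its share over all genes was not counted, and these genes were picked by their small p.

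Genes of dividing cells were mostly lower in Apcdd1+/- cells, without a call. Of 52 G2/M genes tested, 46 had a negative difference, with a median of -0.36, beside -0.0002 over all genes. Mki67, a marker of cycling cells, was at 173 and 176 CPM in Apcdd1+/- cells, against 278 and 371 CPM in WT cells (-0.88 ± 0.22, edgeR adjusted p = 1.0). Top2a was at 683 and 473 CPM in Apcdd1+/- cells, against 871 and 1024 CPM in WT cells. The G2/M genes summed to 12905 and 10856 CPM in Apcdd1+/- cells, against 14696 and 14837 CPM in WT cells. The S phase genes did not share that direction, with 28 of 41 positive and a median of 0.09. The share of cells with a Barhl UMI, the class with more G2/M RNA, was 36.2% and 55.0% in Apcdd1+/- libraries, against 48.8% and 75.0% in WT libraries. The part of that share in these values was not tested. These shares rose in the order of median depth, which was 8692 and 12118.5 UMIs in Apcdd1+/- libraries, against 11119 and 15966.5 UMIs in WT libraries. The part of depth in the shares was not tested either.

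With all 4 libraries in the fit no Wnt gene was called by genotype, although Wnt8b and Dkk3 were called without WT replicate 1. Of 6 ligands tested, 5 had a negative difference, with a median of -0.45. Wnt8b was at 247 and 168 CPM in Apcdd1+/- cells, against 276 and 492 CPM in WT cells (-0.81 ± 0.26), and Wnt5a at 85.7 and 64.1 CPM in Apcdd1+/- cells, against 137 and 144 CPM in WT cells (-0.84 ± 0.29). Both Apcdd1+/- libraries lay below both WT libraries for these 2 genes, at edgeR adjusted p of 1.0. Such a separation of 2 libraries from 2 has an exact permutation p of 0.33, and its share over all genes was not counted. Among 9 beta-catenin targets tested, 4 were positive and 5 negative. Axin2 was at 33.4 and 32.0 CPM in Apcdd1+/- cells, against 13.9 and 31.0 CPM in WT cells (0.62 ± 0.54), and Lef1, a nuclear partner of beta-catenin, at 37.8 and 44.1 CPM in Apcdd1+/- cells, against 51.6 and 36.6 CPM in WT cells (-0.16 ± 0.43).

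**Figure D4:**
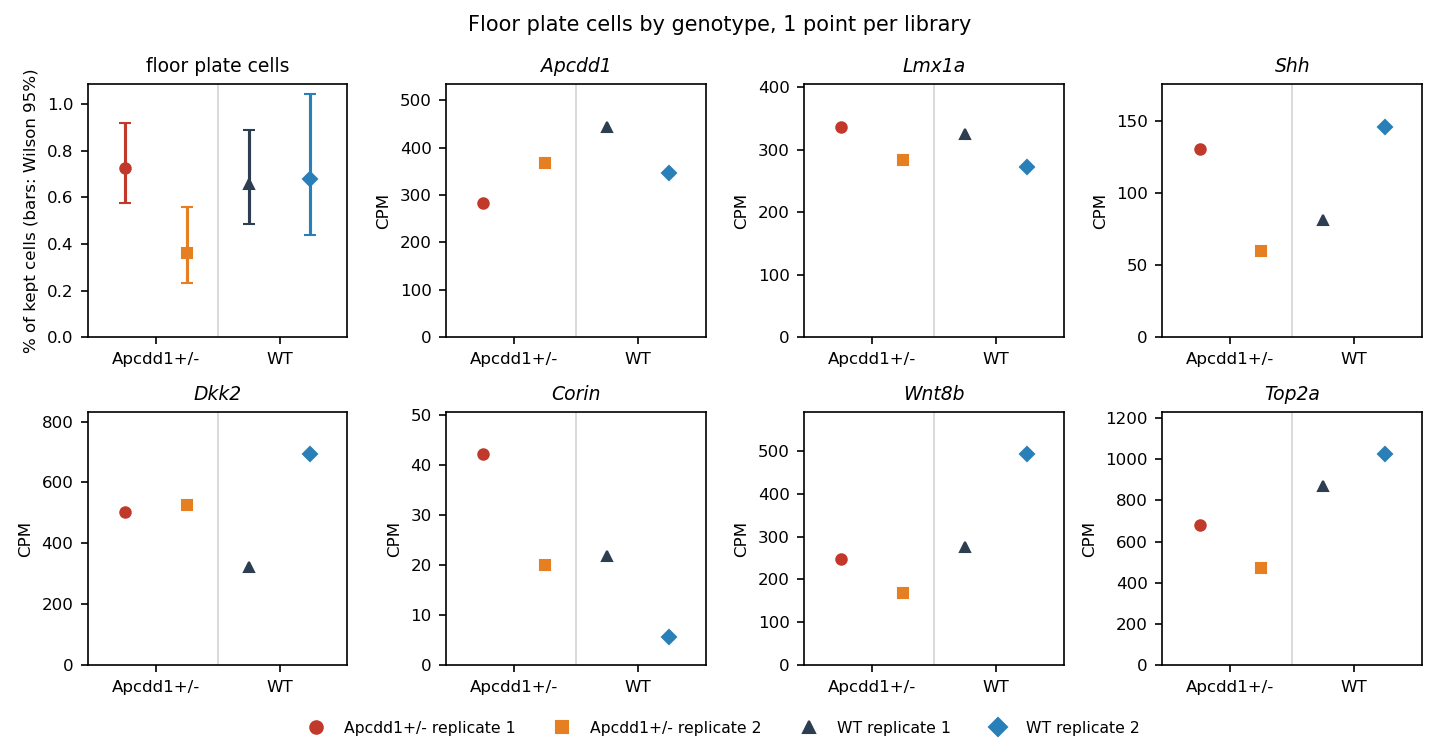
The share of floor plate cells among kept cells in percent (first panel, bars are Wilson 95% intervals) and the levels of 7 genes in floor plate cells in CPM (other panels, linear, from 0), with Apcdd1+/- libraries left of WT libraries and 1 point per library. The genotypes overlap for the share, Apcdd1, Lmx1a, Shh and Dkk2, and the Apcdd1+/- values of Wnt8b and Top2a lie below the WT ones with no gene past the threshold. Such a separation of 2 libraries from 2 has an exact permutation p of 0.33.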

How the data were processed

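Heads of E10.5 mouse embryos were dissociated and sorted with DAPI to remove dead cells, and droplet libraries were made with a DNBelab C kit, per the labels' protocols. The deposited matrices hold raw counts of UMIs for each gene in each cell and come from PISA 0.12, per the file headers. Scanpy 1.9.1 and the build mm10 are named without a role, per the submitters' processing notes. The sources used here do not give the aligner, the annotation or any earlier filter on cells. Together the matrices listed 20719 genes, 18081 of them in every library. Genes missing from a library's list count as 0 in it.

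Cells were gated on raw UMIs, and counts were summed per library and cell set. Doublets were not called. edgeR 4.0.16 (R 4.3.3) with TMM, filterByExpr and the quasi-likelihood test was used for each comparison, with all genes tested entering the Benjamini-Hochberg adjustment at 0.05. The library was a block between cell sets, and genotypes had no block. Levels are CPM, errors are SE of log2 differences, and 95% intervals of them are normal approximations from that SE. The genes named by rule were up to 10 higher and 10 lower per comparison, by size among called genes with at least 20 CPM in the higher set and 1 sign in all libraries. Each gene of the floor plate and dopaminergic progenitor lists, Apcdd1 and the leading members of other lists were also given values. Genes with the smallest p by genotype, the genes compared between position classes, Thbd and the other examples outside that rule were chosen after their values were seen. Alternatives were other size factors, DESeq2 1.42.0, no filter, other gates, depth limits, leaving out each library and, chosen after seeing the data, the sex of the library, cells rich in haemoglobin or Ttr, comparison cells with roof plate genes and cells with En1 or En2. The fits were tested on simulated data with changes placed in genes of at least 20 CPM. The genotype fit recovered 31% of 2-fold and 84% of 4-fold changes. Each comparison of cell sets recovered 80% and 100%. The members and the gene lists were chosen with earlier results of these data known. Intervals of shares and of pooled levels cover counting error only.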

Additional observations from a re-analysis of the deposited data

How the results depend on the processing

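The 0 calls between Apcdd1+/- and WT stayed 0 under RLE size factors, DESeq2, at least 1000 genes per cell, at least 2 Lmx1a UMIs, the sex of the library as a term and without cells rich in haemoglobin or Ttr. Without a filter on low counts edgeR called 3 genes (Crabp1, Deup1 and Ttr), and with the replicate number as a block (replicate block) 1 (Crabp1). Equal replicate numbers share only a name, and deviations of equal-numbered libraries correlated at 0.0555 over 6411 genes. The fits that left out 1 library called 2 to 9 genes. They were 8 without Apcdd1+/- replicate 1, 2 without Apcdd1+/- replicate 2, 9 without WT replicate 1 and 3 without WT replicate 2, and in them a lone library takes its spread from the other genotype. The cause was not tested. Against Lmx1a negative cells the 330 calls became 179 with DESeq2 (102 higher and 77 lower), 191 with at least 2 Foxa2 UMIs in both sets, 128 in cells with En1 or En2 (88 higher and 40 lower, over fewer cells) and 166 to 302 without 1 library, lowest without Apcdd1+/- replicate 1, which held the most cells. Against Foxa2 negative cells the 533 calls became 285 with DESeq2, 304 with at least 2 Lmx1a UMIs in both sets and 380 to 487 without 1 library. Without the filter on low counts the calls were 200 higher and 238 lower against Lmx1a negative cells and 319 higher and 423 lower against Foxa2 negative cells, and comparison cells with a roof plate gene gave 613. In the share of floor plate cells the difference between genotypes of -0.122 points became 0.0161 with none of the 6 neuronal genes allowed and ranged from -0.305 to 0.0604 without 1 library, the last without Apcdd1+/- replicate 2, and was -0.122 with the replicate block. Among 2047 values of single genes under alternatives, 1852 kept their direction and call, 193 kept their direction and lost the call and 2 reversed, Nes at 0.24 and Sox3 at 0.0427 in cells with En1 or En2. Alternatives for the test between cells with 3 or more and with 1 Lmx1a UMI were not run, since that test was not made. The genotype comparison had the least depth, with 20 floor plate cells in 1 library of each genotype.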
